A study of Mus musculus with 8 samples.

Results

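The antioxidant enzymes described here were *Sod1*, *Sod2*, *Cat*, *Gpx1*, *Gpx4*, *Prdx3*, *Prdx4*, *Txnrd3*, *Nqo1* and *Hmox1*. They were chosen by name, as 10 of the 54532 genes in the deposited RNA-seq table, and each name matched 1 gene. The question was how the RNA of these enzymes differed between MFN2 cKO and MFN2 WT spermatocytes, between P (pachytene) and L/Z (leptotene or zygotene) spermatocytes, and between the ages PD 24 and PD 52 (postnatal day). All mice were of the C57BL/6J strain. The MFN2 WT mice are labelled Mfn2 loxp/loxp, and the study's methods also allow littermates with 1 floxed allele. The MFN2 cKO mice are Mfn2 loxp/loxp; Stra8-Cre, in which Cre is driven by the promoter of *Stra8*, active in male germ cells, and removes exon 6 of *Mfn2*. Somatic cells of the testis therefore keep the gene. Cells settled in a gradient of BSA, so that size mainly decided where they were collected. There was 1 library for each of the 8 combinations of stage, genotype and age, so a difference within 1 stage and age has no replicate check.

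The 8 libraries held 14340665 to 20379950 reads on genes. The targeted gene *Mfn2* had less RNA in MFN2 cKO than in MFN2 WT in each of the 4 pairs, with a log2 change of -0.31 in P spermatocytes at PD 52 and of -0.94 to -1.23 in the others. Elongating spermatid genes such as *Prm1* and *Tnp2* were found in every library, and their summed level (8 genes) was higher in L/Z than in P spermatocytes in all 4 pairs of stages. Of 8 genes fixed as markers of leptotene and zygotene cells, 4 were higher in P than in L/Z in the test over stages described below and 1 was lower. Of 8 markers of pachytene cells 2 (*Piwil1* and *Pou5f2*) were called higher in P and 1 (*Cdc25c*) lower, and 5 or 6 of the 8 were higher in each pair. Of all genes 12.4% were called higher in P and 16% lower, and 44.2% to 53.9% were higher by any amount in each pair.

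Superoxide dismutases turn superoxide into hydrogen peroxide, which catalase, glutathione peroxidases and peroxiredoxins then remove. Glutathione peroxidases draw on glutathione, and peroxiredoxins on thioredoxin, which thioredoxin reductases keep reduced. In the testis GPX4 is known as an abundant selenoprotein of haploid germ cells and a structural part of the sperm mitochondrial capsule, and TXNRD3 as a thioredoxin and glutathione reductase enriched in testis. *Nqo1* and *Hmox1* are classic targets of the transcription factor NRF2, and *Hmox1* is also induced by haem.

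*Gpx4* and *Txnrd3* made up most of the summed FPKM. FPKM values count fragments per kilobase of gene and are scaled to library size, so levels of different genes depend on the gene length taken. That length was 3970 bases for *Sod1* and 10008 for *Sod2*, where 1 of 2 and 2 of 8 annotated transcripts are protein-coding. A gene whose RNA is shorter than the length taken is understated, and the order given here is one of FPKM. Summed over the 10 enzymes, FPKM lay between 560 (P MFN2 cKO PD 24) and 1229 (L/Z MFN2 cKO PD 52), and *Gpx4* with *Txnrd3* took between 75.5% and 88.0% of it. *Gpx4* was above *Txnrd3* in all 8 libraries, although the ranges of these genes over the libraries overlapped. *Sod1* (22.4 to 51.3 FPKM) and *Prdx4* (13.5 to 71.4) followed by mean level, and neither range overlapped that of *Txnrd3* (184 to 297). *Gpx1* (6.17 to 33.9), *Hmox1* (4.66 to 25.8), *Sod2* (9.10 to 15.3), *Prdx3* (2.26 to 20.6) and *Cat* (3.24 to 9.21) had ranges that overlapped, and those of *Gpx1*, *Hmox1*, *Sod2* and *Prdx3* also overlapped those of *Sod1* or *Prdx4*, so that no order held in every library. *Nqo1* was the lowest, with 0.223 to 1.59 FPKM from 7 to 43 reads, and it passed 1 FPKM in 3 of the 8 libraries.

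**Figure D1:**
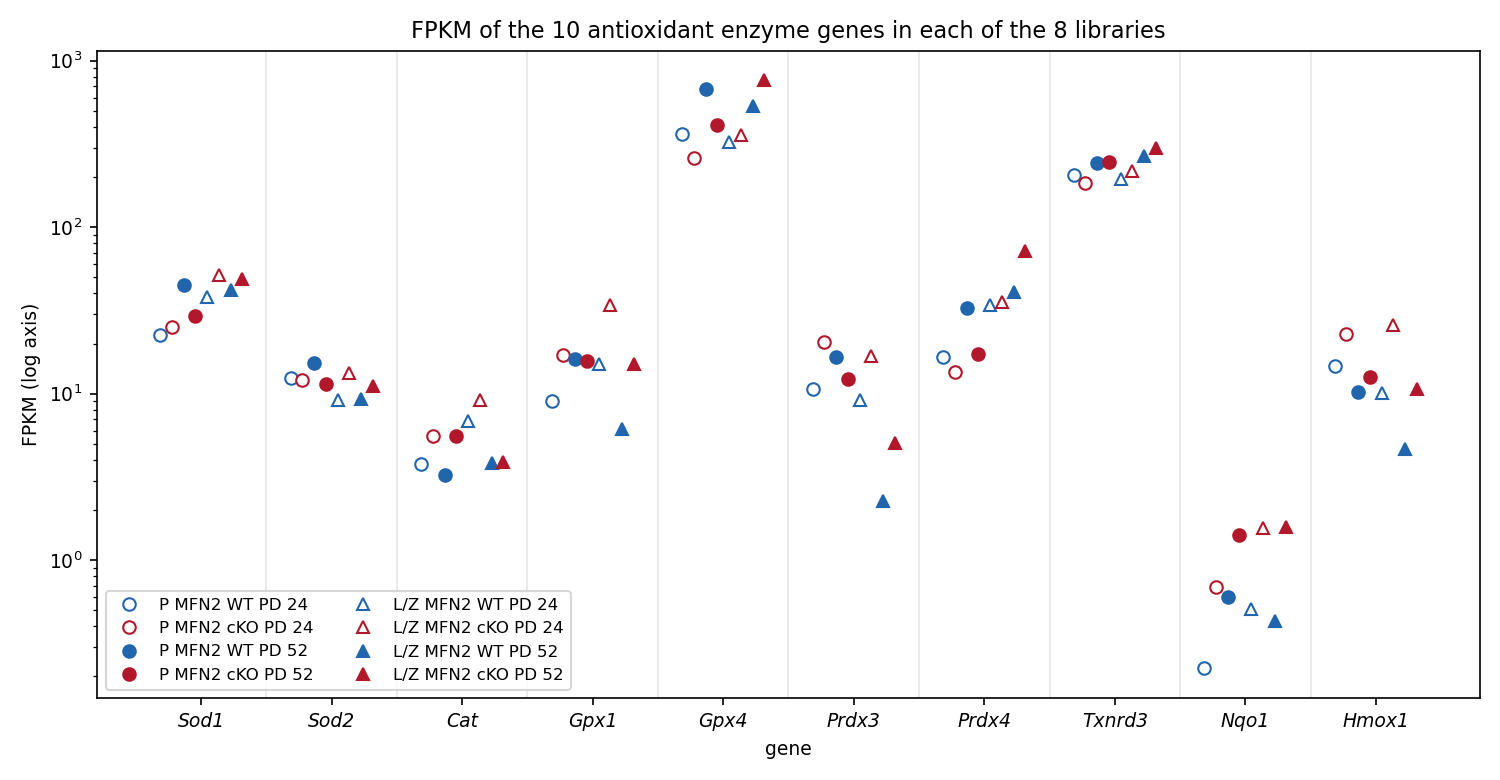
FPKM (log axis) of each of the 10 antioxidant enzyme genes in the 8 libraries, 1 point per library, with circles for P, triangles for L/Z, blue for MFN2 WT, red for MFN2 cKO, open symbols for PD 24 and filled symbols for PD 52. *Gpx4* and *Txnrd3* lie above the other genes in every library, and *Nqo1* lies at 0.223 to 1.59 FPKM.

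The 3 selenoproteins among these enzymes, which include both of those highest in FPKM, are shown by the codon that defines them. GENCODE M21 (GRCm38) annotates in each a TGA that is read as selenocysteine and not as a stop. The coding sequence around that codon, 5′ to 3′ with the TGA in capitals, is as follows.
*Gpx1*: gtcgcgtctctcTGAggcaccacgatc
*Gpx4*: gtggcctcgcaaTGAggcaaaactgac
*Txnrd3*: cagaaaggctgcTGAggc
In *Gpx1* (transcript Gpx1-201, forward strand) the codon is at chr9:108339451-108339453 in exon 1 of 2, and it is codon 47 of 201. In *Gpx4* (Gpx4-201, forward strand) it is at chr10:80054737-80054739 in exon 3 of 7, codon 129 of 253. In *Txnrd3* (Txnrd3-201, forward strand) it is at chr6:89674789-89674791 in exon 16 of 16, codon 614 of 615, so that its sequence ends 1 codon after the TGA, before the stop codon TAG. All 3 genes share the glycine codon GGC directly after the TGA.

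The superoxide dismutases lay within 2.29-fold (*Sod1*) and 1.69-fold (*Sod2*) over the 8 libraries. *Sod1*, the cytosolic enzyme, lies at chr16:90220754-90226329 (forward strand). In P spermatocytes its FPKM was 22.4 (MFN2 WT) and 25.2 (MFN2 cKO) at PD 24, with 45.1 and 29.3 at PD 52. The L/Z values were 37.9 and 51.3 at PD 24, with 42.2 and 48.8 at PD 52. Apart from the MFN2 WT library at PD 52, the P libraries were below all L/Z libraries. *Sod2*, the mitochondrial enzyme (chr17:13006846-13040063, forward strand), was at 12.5 and 12.1 FPKM in P at PD 24, 15.3 and 11.5 in P at PD 52, 9.10 and 13.3 in L/Z at PD 24, and 9.27 and 11.2 in L/Z at PD 52, with MFN2 WT first. Its highest value was in P MFN2 WT at PD 52. *Sod1* overlaps the gene *Scaf4* on the opposite strand over 650 bases, and use of strand in the counting is not given in the sources used here.

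*Cat*, the catalase of peroxisomes (chr2:103453849-103485160, reverse strand), was at 3.79 FPKM (MFN2 WT) and 5.58 (MFN2 cKO) in P at PD 24, with 3.24 and 5.56 at PD 52. In L/Z it was at 6.85 and 9.21 at PD 24, with 3.84 and 3.90 at PD 52. The L/Z libraries at PD 24 were the highest.

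The glutathione peroxidases were far apart in level. *Gpx4*, which reduces lipid peroxides (chr10:80047166-80056439, forward strand), was at 363 FPKM (MFN2 WT) and 259 (MFN2 cKO) in P at PD 24, with 677 and 408 at PD 52. In L/Z it was at 325 and 359 at PD 24, with 536 and 764 at PD 52. All 4 libraries at PD 52 were above all 4 at PD 24. *Gpx1*, the general cytosolic and mitochondrial enzyme (chr9:108338903-108340343, forward strand), was at 8.98 and 17.2 in P at PD 24, 16.1 and 15.7 in P at PD 52, 15.1 and 33.9 in L/Z at PD 24, and 6.17 and 15.0 in L/Z at PD 52, with MFN2 WT first. Its level was 1.15% to 9.45% of that of *Gpx4*. Of the stretches of 50 bases in *Gpx4* transcripts, 34.7% also occur in other transcripts, mainly in the pseudogene *Gpx4-ps2*, whose reads were 12.3% to 14.4% as many as those of *Gpx4*. Reads could therefore be split between these genes.

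The peroxiredoxins differed in where they were high. *Prdx3*, the mitochondrial peroxiredoxin (chr19:60864051-60874556, reverse strand), was at 10.7 FPKM (MFN2 WT) and 20.6 (MFN2 cKO) in P at PD 24, with 16.5 and 12.2 at PD 52. In L/Z it was at 9.13 and 16.8 at PD 24, with 2.26 (50 reads) and 5.05 (109 reads) at PD 52. The L/Z libraries at PD 52 were the lowest of all. *Prdx4*, the peroxiredoxin of the endoplasmic reticulum, lies on chromosome X (chrX:155323918-155340754, reverse strand). It was at 16.6 and 13.5 in P at PD 24, 32.8 and 17.3 in P at PD 52, 34.1 and 35.3 in L/Z at PD 24, and 40.7 and 71.4 in L/Z at PD 52. Every L/Z library was above every P library.

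*Txnrd3* (chr6:89643988-89675529, forward strand) had the smallest range of these enzymes as a ratio of highest to lowest value (1.62). The values ran from 184 FPKM in P MFN2 cKO PD 24 to 297 in L/Z MFN2 cKO PD 52. In P it was at 206 (MFN2 WT) and 184 (MFN2 cKO) at PD 24, with 243 and 247 at PD 52. In L/Z it was at 194 and 218 at PD 24, with 268 and 297 at PD 52. The PD 52 libraries were above the PD 24 libraries.

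The NRF2 targets were at modest or very low levels. *Hmox1*, which breaks down haem (chr8:75093621-75100589, forward strand), was at 14.6 FPKM (MFN2 WT) and 22.8 (MFN2 cKO) in P at PD 24, with 10.3 and 12.6 at PD 52. In L/Z it was at 10.1 and 25.8 at PD 24, with 4.66 and 10.7 at PD 52. The MFN2 cKO libraries at PD 24 were the highest. *Nqo1*, a quinone reductase (chr8:107388225-107403206, reverse strand), was at 0.223 (7 reads) and 0.692 (20 reads) in P at PD 24, and at 0.602 (15 reads) and 1.42 (32 reads) at PD 52. In L/Z it was at 0.511 (15 reads) and 1.56 (43 reads) at PD 24, with 0.430 (10 reads) and 1.59 (36 reads) at PD 52. All 4 MFN2 cKO libraries were above all 4 MFN2 WT libraries.

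The first comparison asked whether the enzymes differed between MFN2 cKO and MFN2 WT. The 10 enzymes did not move as 1 group. In L/Z spermatocytes all 10 were higher in MFN2 cKO at both ages, beside 57% of all genes with FPKM above 1 at PD 24 and 53% at PD 52. In P spermatocytes 6 of 10 were higher at PD 24 (37.9% of all genes) and 4 of 10 at PD 52 (45.6%). The median change of the enzymes was 0.46 and 0.65 in L/Z at PD 24 and PD 52, and 0.31 and -0.21 in P. Without *Nqo1*, which was below 1 FPKM in both P libraries at PD 24, 5 of 9 were higher in that pair with a median of 0.16. Over genes with FPKM above 1 the median was 0.08, 0.02, -0.10 and -0.05 in the same order. A change here is the difference of log2(FPKM + 1), which understates the change of genes with low values. Intervals beside it are 95% exact binomial (Clopper-Pearson) intervals of the reads, and they cover counting error only.

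*Hmox1*, *Nqo1* and *Cat* were higher in MFN2 cKO in 4 of 4 pairs. For *Hmox1* the change was 0.60 (0.45 to 0.76) in P at PD 24, 0.27 (0.06 to 0.49) in P at PD 52, 1.27 (1.10 to 1.44) in L/Z at PD 24 and 1.04 (0.78 to 1.31) in L/Z at PD 52. The 2 L/Z changes were the larger. For *Nqo1* the change was 0.47 (0.10 to 0.74), 0.59 (0.15 to 0.98), 0.76 (0.37 to 1.10) and 0.85 (0.41 to 1.20) in the same order, and with nothing added to the FPKM the ratio was 3.10, 2.36, 3.05 and 3.69. The reads behind *Nqo1* were few, and at this level the added 1 hides most of the ratio. For *Cat* the change was 0.46, 0.63 and 0.38 in the first 3 pairs and 0.02 (-0.25 to 0.29) in L/Z at PD 52, where it was not detectable at this depth.

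*Gpx1* and *Prdx3* were higher in MFN2 cKO in 3 of 4 pairs. The change of *Gpx1* was 0.86 (0.66 to 1.07) in P at PD 24, 1.12 (0.95 to 1.28) in L/Z at PD 24 and 1.16 (0.90 to 1.43) in L/Z at PD 52, and it was -0.03 (-0.24 to 0.17) in P at PD 52. The change of *Prdx3* was 0.88, 0.81 and 0.89 in those 3 pairs and -0.41 (-0.62 to -0.19) in P at PD 52. The P pair at PD 52 thus stood apart from the others for both genes. Enzymes changed at least 2-fold, on the log2(FPKM + 1) scale, were *Gpx1* and *Hmox1* in L/Z at PD 24 and again at PD 52, where 3.45% and 4.83% of all genes were higher by as much. In P none of the 10 reached 2-fold on this scale at either age, beside 8.08% and 11% of all genes in either direction. With nothing added to the FPKM, *Nqo1* passed 2-fold in all 4 pairs and *Prdx3* in L/Z at PD 52 (2.23-fold), so that 9 changes in place of 4 reached it.

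*Gpx4* and *Prdx4* were lower in MFN2 cKO in P and higher in L/Z. The change of *Gpx4* was -0.48 (-0.52 to -0.45) and -0.73 (-0.76 to -0.69) in P at PD 24 and PD 52, and 0.14 (0.10 to 0.18) and 0.51 (0.48 to 0.54) in L/Z. The change of *Prdx4* was -0.28 (-0.44 to -0.13) and -0.89 (-1.03 to -0.74) in P, and 0.05 (-0.06 to 0.16) and 0.80 (0.70 to 0.89) in L/Z. *Sod2* had the same order of signs, with -0.04 and -0.39 in P and 0.50 and 0.24 in L/Z. Elongating spermatid genes moved with genotype too. Their summed FPKM (8 genes) was 1252 (MFN2 WT) and 108 (MFN2 cKO) in P at PD 24, 4885 and 2246 in P at PD 52, 2492 and 380 in L/Z at PD 24, and 11142 and 20261 in L/Z at PD 52. This sum was thus lower in MFN2 cKO in both P pairs and higher in L/Z at PD 52, as *Gpx4* was. It was also lower in L/Z at PD 24, where *Gpx4* was higher (0.14). The part of these genes' cells in the level of *Gpx4* was not tested. *Sod1* was lower in MFN2 cKO only in P at PD 52 (-0.61), and *Txnrd3* only in P at PD 24 (-0.16).

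**Figure D2:**
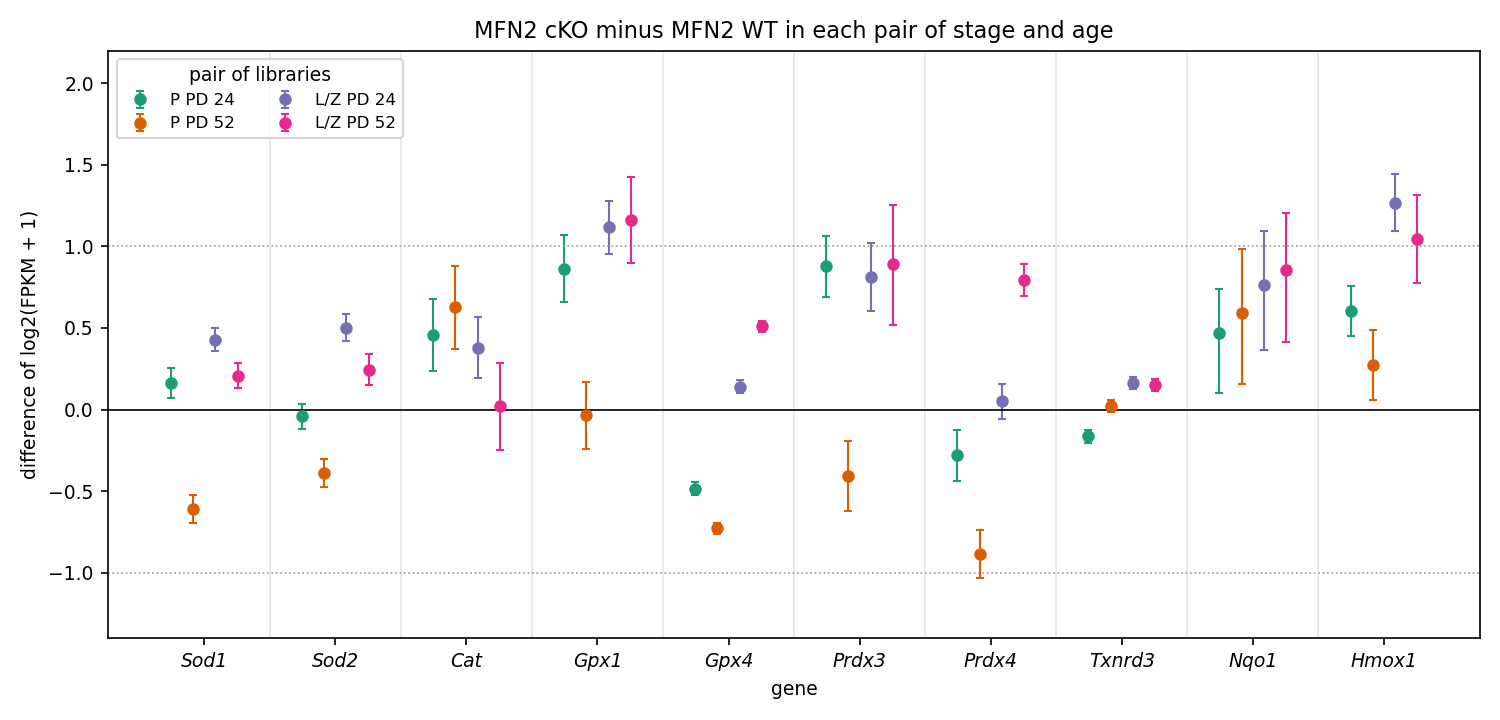
Difference of log2(FPKM + 1) between MFN2 cKO and MFN2 WT for the 10 enzymes, 1 point for each pair of stage and age, with bars for the 95% counting interval and dotted lines at a 2-fold change. *Hmox1*, *Nqo1* and *Cat* are above 0 in all 4 pairs, and *Gpx4* and *Prdx4* lie below 0 in both P pairs.

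To ask for an effect shared by the 4 pairs, limma was run with the pair of stage and age as a block and Benjamini-Hochberg adjustment over 21175 genes, those that passed 1 FPKM in some library. None of the 10 enzymes passed an adjusted p of 0.05, and 3 of 10 had an unadjusted p under 0.05. Over all genes 0.137% were called (29, and 1467 at an unadjusted p under 0.05). The log2 effect was 0.80 (SE 0.20, adjusted p = 0.357) for *Hmox1*, 0.67 (SE 0.16, adjusted p = 0.317) for *Nqo1* and 0.78 (SE 0.23, adjusted p = 0.496) for *Gpx1*. It was 0.37 (adjusted p = 0.722) for *Cat* and 0.54 (adjusted p = 0.747) for *Prdx3*, and between -0.14 and 0.08 for the other 5 enzymes. *Nqo1* passed 1 FPKM in 3 libraries, all of them MFN2 cKO, so it was among the genes tested only through the group where it was high. By limma without the FPKM filter its adjusted p was 0.704. *Mfn2* itself had an effect of -0.87 (SE 0.19, adjusted p = 0.275) and was not called either, although it was lower in 4 of 4 pairs. With any 1 of the 4 pairs left out, 0 genes were called.

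Markers of some somatic testis cells moved with genotype. Sertoli cell genes had 1 positive and 6 negative effects (median -0.15), and peritubular myoid genes had 2 and 3 (median -0.10). All 3 endothelial genes tested had a positive effect (median 0.15). Of these Sertoli, myoid and endothelial genes 0 were called. The summed FPKM of 7 Leydig cell genes was 19.7 to 255 in the MFN2 WT libraries and 99.0 to 641 in the MFN2 cKO libraries, and it was higher in MFN2 cKO in 4 of 4 pairs. All 7 had a positive effect and 4 were called, with none listed at 0 in any library. The summed FPKM of 10 macrophage genes was 10.8 to 60.7 in MFN2 WT and 24.2 to 280 in MFN2 cKO. It too was higher in 4 of 4 pairs, and all 9 of those genes that were tested had a positive effect, although 0 were called by limma (7 at an unadjusted p under 0.05). The part of these cells in the higher *Hmox1*, *Nqo1*, *Cat* and *Gpx1* was not tested. Erythroid genes, whose cells hold haem, had a median effect of 0.59 over 5 genes, with 0 called (2 at an unadjusted p under 0.05). In L/Z their summed FPKM was 2.46 (MFN2 WT) and 59.0 (MFN2 cKO) at PD 24, with 0.944 and 4.55 at PD 52. In P it was 0.867 and 2.94 at PD 24, with 8.94 and 3.85 at PD 52. *Hmox1*, *Gpx1*, *Cat* and *Sod1* were also highest in L/Z MFN2 cKO at PD 24, and the other enzymes in other libraries. The part of erythroid cells in these levels was not tested. In bulk samples fewer cells of a type and less RNA per cell cannot be told apart.

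The second comparison asked how the enzymes differed between the ages. *Gpx4* rose from PD 24 to PD 52 and *Hmox1* fell, each in 4 of 4 pairs. The change of *Gpx4* was 0.90 (0.86 to 0.93) in P MFN2 WT, 0.65 (0.61 to 0.70) in P MFN2 cKO, 0.72 (0.68 to 0.76) in L/Z MFN2 WT and 1.09 (1.05 to 1.12) in L/Z MFN2 cKO. That of *Hmox1* was -0.47 (-0.67 to -0.28), -0.81 (-0.99 to -0.63), -0.98 (-1.24 to -0.72) and -1.20 (-1.39 to -1.02) in the same order. By limma over the 4 pairs, the effect of age was 0.84 (SE 0.11, adjusted p = 0.0145) for *Gpx4* and -0.86 (SE 0.17, adjusted p = 0.0231) for *Hmox1*. These were 2 of 10 enzymes, where 17.3% of all genes were called, so the share of enzymes called was near that of all genes.

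Other enzymes leaned the same way in all pairs without passing. *Txnrd3* was higher at PD 52 in 4 of 4 pairs, by 0.24 to 0.46, with an effect of 0.39 (SE 0.11, adjusted p = 0.0515). *Prdx4* was higher in 4 of 4 pairs, by 0.25 to 0.996, with an effect of 0.63 (SE 0.18, adjusted p = 0.0626). *Cat* was lower in 4 of 4 pairs, and its change was -0.70 and -1.06 in L/Z but -0.18 and -0.003 in P (effect -0.48, adjusted p = 0.149). *Prdx3* and *Gpx1* were lower at PD 52 in 3 of 4 pairs and higher in P MFN2 WT. For *Prdx3* the L/Z changes of -1.64 and -1.56 were the largest of any enzyme between ages (effect -0.83, adjusted p = 0.163). At least 2-fold lower at PD 52 on the log2(FPKM + 1) scale were *Gpx1* and *Prdx3* in L/Z MFN2 WT (5.38% of all genes), and *Cat*, *Gpx1*, *Prdx3* and *Hmox1* in L/Z MFN2 cKO (12.6%). At least 2-fold higher was *Gpx4* in L/Z MFN2 cKO (18.8%). No enzyme reached 2-fold in P on this scale, where 14.6% (MFN2 WT) and 18.9% (MFN2 cKO) of all genes did. With nothing added, 12 changes in place of 7 reached 2-fold. The others were higher values of *Sod1* (2.01-fold) and *Nqo1* (2.69-fold) in P MFN2 WT, of *Nqo1* (2.05-fold) in P MFN2 cKO and of *Prdx4* (2.02-fold) in L/Z MFN2 cKO, and a lower value of *Hmox1* (2.18-fold) in L/Z MFN2 WT.

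Both calls were lost without the FPKM filter (adjusted p = 0.0563 for *Gpx4* and 0.0577 for *Hmox1*) and without the block of pairs (0.116 and 0.173). They also depended on 3 of the pairs. Without the pair P MFN2 WT both genes still passed (adjusted p = 0.0374 each). Without P MFN2 cKO, L/Z MFN2 WT or L/Z MFN2 cKO neither passed, with adjusted p = 0.134, 0.0896 and 0.0747 for *Gpx4* and 0.147, 0.129 and 0.0838 for *Hmox1*, and no gene of the table was called. The effects themselves stayed between 0.76 and 0.90 for *Gpx4* and between -0.99 and -0.75 for *Hmox1*. Spermatid genes moved with age as *Gpx4* did. The summed FPKM of 8 elongating spermatid genes was 108 to 2492 in the PD 24 libraries and 2246 to 20261 in the PD 52 libraries, and 7 of 8 were called higher at PD 52. Of 7 round spermatid genes 6 were called higher. None of these genes was listed at 0, and their part in the level of *Gpx4* was not tested. Sertoli cell genes moved the opposite way, with 6 of 7 called lower at PD 52.

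**Figure D3:**
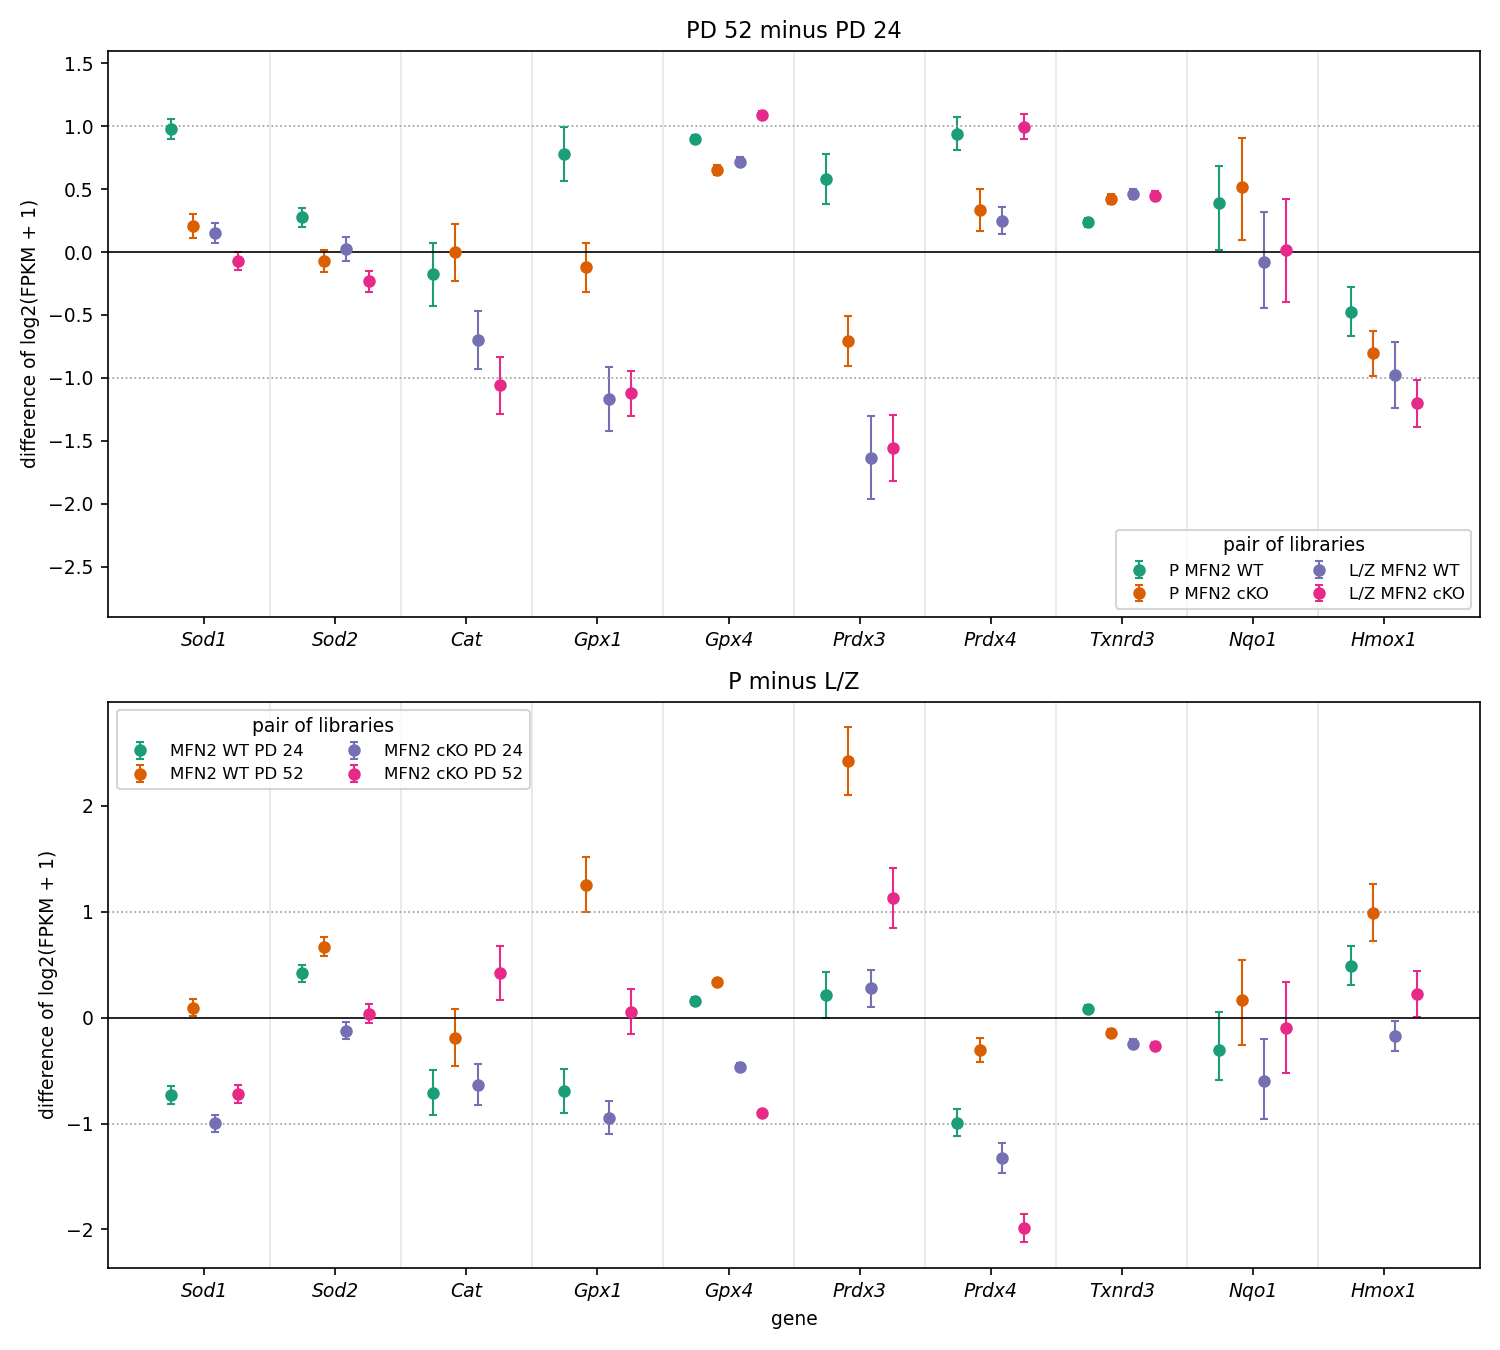
Difference of log2(FPKM + 1) for the 10 enzymes between ages (upper panel, PD 52 minus PD 24) and between stages (lower panel, P minus L/Z), 1 point for each pair of libraries, with 95% counting intervals and dotted lines at a 2-fold change. *Gpx4* lies above 0 and *Hmox1* below 0 in all 4 pairs of ages, and *Prdx4* lies below 0 in all 4 pairs of stages.

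The third comparison asked how the enzymes differed between P and L/Z spermatocytes. *Prdx4* was lower in P in 4 of 4 pairs and was the only enzyme that passed. Its change, P minus L/Z, was -0.99 (-1.12 to -0.87) in MFN2 WT at PD 24, -0.30 (-0.42 to -0.19) in MFN2 WT at PD 52, -1.32 (-1.46 to -1.19) in MFN2 cKO at PD 24 and -1.99 (-2.12 to -1.86) in MFN2 cKO at PD 52. The effect by limma over the 4 pairs was -1.15 (SE 0.26, adjusted p = 0.0181). That is 1 of 10 enzymes, where 28.4% of all genes were called. Without MFN2 WT PD 52 it passed (adjusted p = 0.0169), and without MFN2 WT PD 24, MFN2 cKO PD 24 or MFN2 cKO PD 52 it did not (adjusted p = 0.107, 0.0808 and 0.0976). It did not pass without the FPKM filter (adjusted p = 0.0708) or without the block of pairs (adjusted p = 0.0732) either.

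Genes of chromosome X as a whole were lower in P. Their median change was -0.59 and -0.18 in MFN2 WT at PD 24 and PD 52 and -0.68 and -0.49 in MFN2 cKO, where the median of autosomal genes was 0.11, 0.04, -0.08 and 0.02. Silencing of the sex chromosomes is a known feature of pachytene cells. *Prdx4* was lower than the median of the chromosome in all 4 pairs, and between 4.70% and 44.6% of the genes of chromosome X were lower still. Elongating spermatid genes were also lower in P, with 7 of 8 called, and their part was not tested.

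Of the other enzymes, *Sod1* was lower in P in 3 of 4 pairs (effect -0.59, SE 0.21, adjusted p = 0.0698). *Prdx3* was higher in P in 4 of 4 pairs, by 0.21 and 0.28 at PD 24 and by 2.43 and 1.13 at PD 52 (effect 1.01, SE 0.36, adjusted p = 0.0716). Its low level in the L/Z libraries at PD 52 gave the large values. Enzymes at least 2-fold higher in P on the log2(FPKM + 1) scale were *Gpx1* and *Prdx3* in MFN2 WT at PD 52 (9.9% of all genes) and *Prdx3* in MFN2 cKO at PD 52 (9.41%). At least 2-fold lower in P was *Prdx4* in MFN2 cKO at PD 24 (11.8%) and at PD 52 (15.3%). In MFN2 WT at PD 24 no enzyme reached 2-fold on this scale, beside 16.3% of all genes. With nothing added, 10 changes in place of 5 reached it. The others were lower values in P of *Prdx4* (2.05-fold) and *Nqo1* (2.29-fold) in MFN2 WT at PD 24 and of *Sod1* (2.04-fold) and *Nqo1* (2.25-fold) in MFN2 cKO at PD 24, and a higher value of *Hmox1* in MFN2 WT at PD 52. All 7 Sertoli cell markers were called higher in P, and 8 of 9 macrophage markers tested were called lower. Their part in these differences was not tested.

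**Figure D4:**
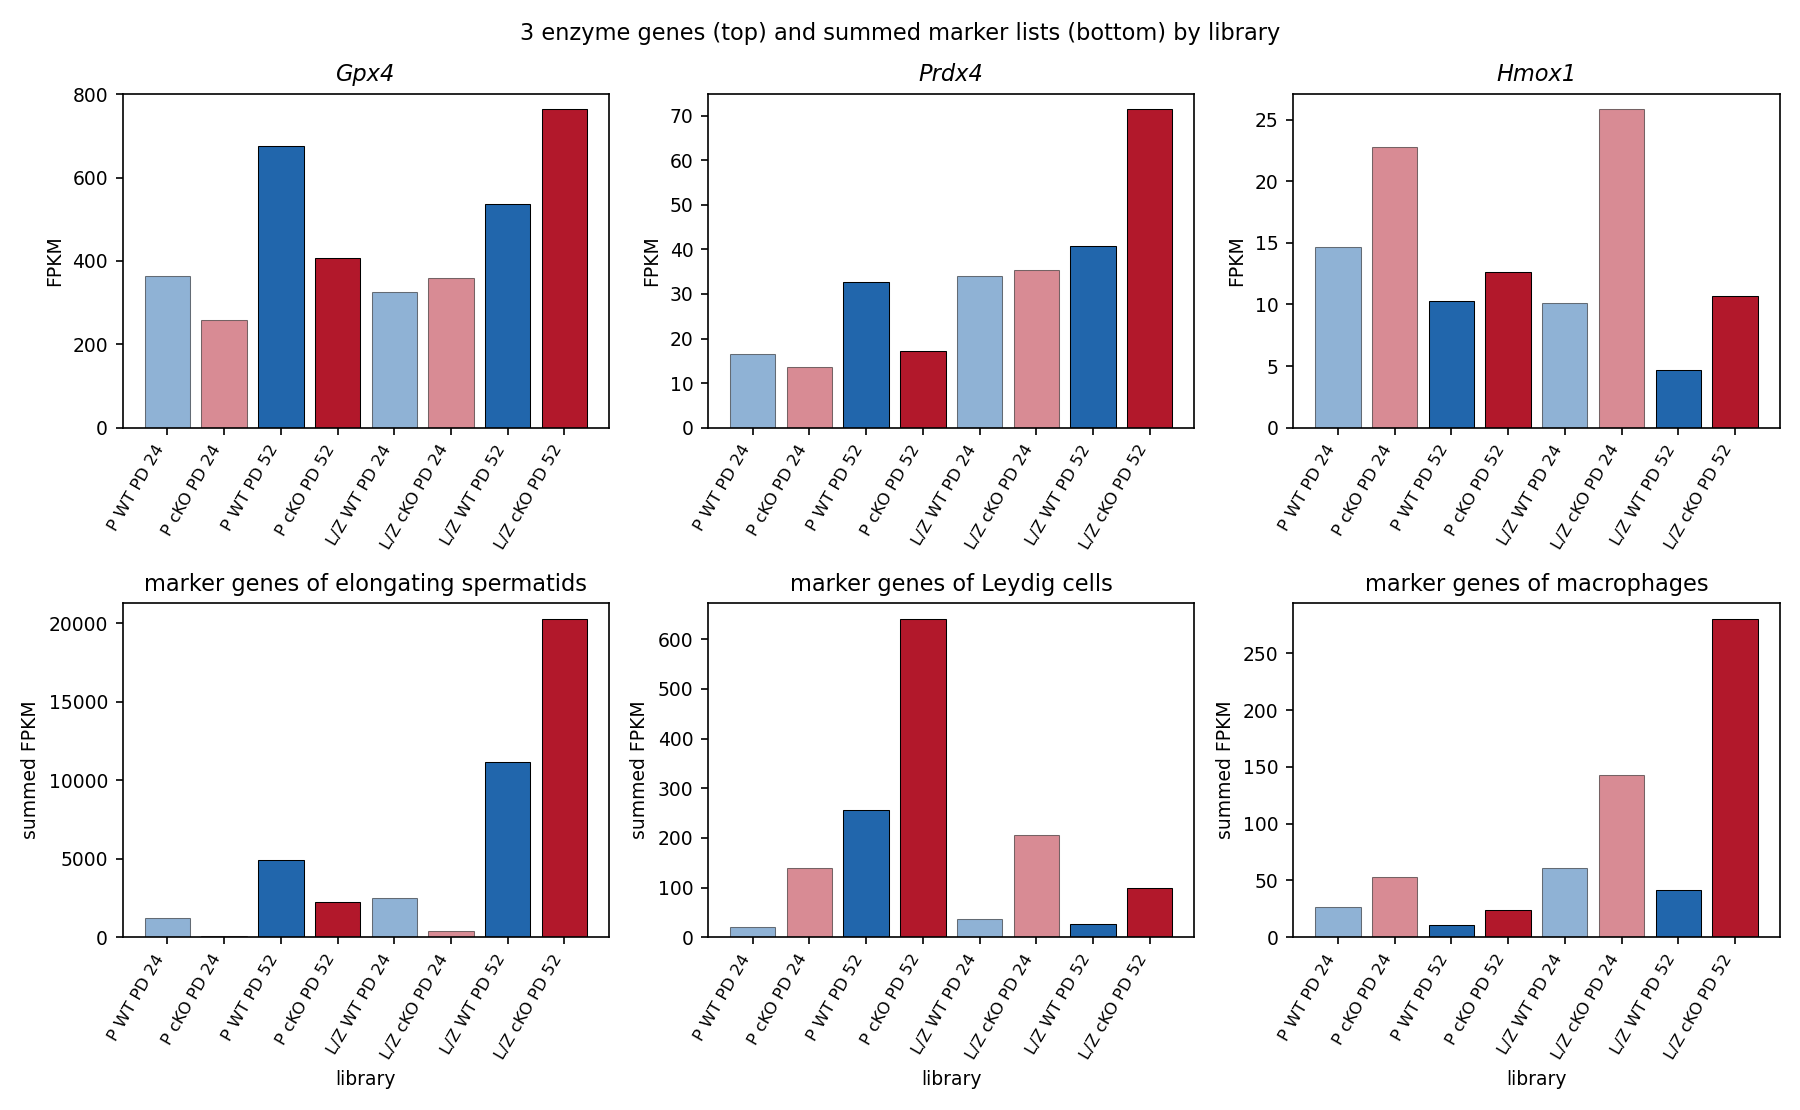
Bars from 0 of the FPKM of *Gpx4*, *Prdx4* and *Hmox1* (top) and of the summed FPKM of marker genes of elongating spermatids, Leydig cells and macrophages (bottom) in the 8 libraries, blue for MFN2 WT and red for MFN2 cKO, pale for PD 24 and dark for PD 52. The elongating spermatid sum ranges from 108 to 20261, and it is highest in L/Z MFN2 cKO PD 52, the library with the most *Gpx4* and *Prdx4*.

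Whether an effect differed between ages, stages or genotypes was tested with an interaction term in limma. None of the 30 tests on the enzymes passed after Benjamini-Hochberg adjustment, and 5 had an unadjusted p under 0.05. Over all genes 1, 0 and 0 were called for genotype by age, genotype by stage and stage by age (0.00472%, 0% and 0%). For *Gpx4* the effect of genotype in P minus that in L/Z was -0.93 (SE 0.22, adjusted p = 0.979), and for *Prdx4* it was -1.01 (SE 0.37, adjusted p = 0.979). The effect of stage at PD 52 minus that at PD 24 was 1.47 (SE 0.46) for *Gpx1*, 1.53 (SE 0.50) for *Prdx3* and 0.79 (SE 0.31) for *Cat*, with adjusted p = 0.846 for each.

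The other genes of the antioxidant pathways were taken as 13 lists with 116 genes tested beside the 10 enzymes. Between genotypes 0 of 116 passed in limma, and 21 had an unadjusted p under 0.05, with a median effect of 0.05. Between ages 15 rose and 11 fell, or 22.4% beside 17.3% of all genes. Between stages 16 were higher in P and 16 lower, or 27.6% beside 28.4%. The shares called were thus close to those of all genes.

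Between ages 17.3% of all genes were called, and the counts of each list below stand beside that share. The peroxiredoxin and thioredoxin lists did not move as groups with age. The 6 other peroxiredoxin genes had 3 positive and 3 negative effects, and the 10 genes of the thioredoxin system 4 and 6. *Txndc2* and *Txndc8*, thioredoxins of the sperm, rose by 2.73 (SE 0.67, adjusted p = 0.0413) and 1.94 (SE 0.27, adjusted p = 0.0146), with *Nme8* at 0.60 as the third of 10 genes of the thioredoxin system called. *Srxn1*, which reactivates oxidised peroxiredoxins, rose by 1.26 (adjusted p = 0.0325) and *Prdx6b* by 0.57 (adjusted p = 0.0254), the 2 of 6 other peroxiredoxin genes called. Among 4 other glutathione peroxidases tested, *Gpx6* rose by 1.504 (adjusted p = 0.0144) and *Gpx7* fell by 0.81 (adjusted p = 0.0432). *Selenov*, a selenoprotein of the testis, rose by 1.78 (adjusted p = 0.0145) and *Dio1* by 0.93, the 2 of 18 other selenoproteins called. *Hmox2*, the constitutive haem oxygenase, rose by 1.43 (adjusted p = 0.0144), opposite in sign to *Hmox1*. It was the only 1 of 7 haem and iron genes called, and 6 of the 7 had a negative effect. *Gstm5*, the most abundant of 21 glutathione S-transferases tested, rose by 0.76, and 2 others rose and 2 fell.

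Of 8 regulators of NRF2 targets 4 were called lower at PD 52 and 0 higher, where 17.3% of all genes were called, and 2 of the 8 had a positive effect. *Maff*, *Mafk* and *Mafg*, the small MAF proteins that pair with NRF2, fell by 1.54 (adjusted p = 0.0144), 1.08 (adjusted p = 0.0146) and 0.90 (adjusted p = 0.0207), and *Bach1*, which represses *Hmox1*, fell by 0.60 (adjusted p = 0.0372). Of 16 other NRF2 targets, *Osgin1* and *Srxn1* rose by 1.58 and 1.26, and *Abcc1* and *G6pdx* fell by 0.81 and 0.80. The median change over these 16 was -0.60, where that of all genes was 0.00.

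The comparison of stages uses the same 8 libraries as that of ages. Between stages 28.4% of all genes were called (12.4% higher in P and 16% lower), and the counts below stand beside that share. *Txndc2*, *Txndc8*, *Nme8*, *Gpx6*, *Srxn1*, *Selenov* and *Hmox2* were lower in P, with effects of -1.58, -1.30, -0.76, -1.07, -0.999, -1.30 and -0.92. Elongating spermatid genes were lower in P as well, as given above. Of 7 genes of glutathione synthesis and reduction, 3 had a positive and 4 a negative effect. The 2 called were *Gclc* and *Gclm*, the subunits of glutamate-cysteine ligase, higher in P by 0.83 (adjusted p = 0.0252) and 0.55 (adjusted p = 0.0437). Of 21 glutathione S-transferases 6 were higher in P and 1 lower, with *Gstt2* at 1.42 (adjusted p = 0.00343) and *Gstm6* at 1.91 (adjusted p = 0.0103). Of 4 genes tested that make superoxide or peroxide, NADPH oxidase subunits and xanthine dehydrogenase (*Xdh*), the oxidase genes *Cyba*, *Cybb* and *Nox3* were lower in P by -1.61, -0.68 and -0.67. *Cyba* and *Cybb* are also expressed by macrophages, whose markers were lower in P as given above.

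The genes most like each enzyme over the 8 libraries were found by Pearson's r of log2(FPKM + 1) among 12434 protein-coding genes with a mean FPKM above 1. With 8 libraries that share stage, age and makeup, such values are a description. For *Gpx4* they were *Ccpg1os* (r = 0.995) and *Ppp1r11* (r = 0.993), and for *Txnrd3* *Ube2u* (r = 0.998), with 297 and 438 genes at r above 0.9. *Prdx4* was most like *Cdkn1c* (r = 0.989) and *Pdk3* (r = 0.987), the latter also on chromosome X. For *Hmox1* they were *Cxcl1* (r = 0.975), a chemokine, and *Sqstm1* (r = 0.973), an autophagy receptor that is also an NRF2 target. For *Nqo1*, *Selenop* (r = 0.963) and *Ctsh* (r = 0.948) came first, and only 16 genes passed 0.9. *Prdx3* was most like *Aldh1b1* (r = 0.994), a mitochondrial aldehyde dehydrogenase, *Gpx1* like *Pgrmc1* (r = 0.972), *Sod1* like *Ssxb2* (r = 0.987), *Sod2* like *Nxt1* (r = 0.996) and *Cat* like *Creb3l2* (r = 0.976).

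The promoter sequences were searched for the core of the antioxidant response element, TGACNNNGC, which NRF2 with a small MAF protein binds, and for the short form of the cAMP response element, TGACG, which CREM binds in spermatids. The first can contain the second where its first N is G. RefSeq windows (GRCm38.p6) of 250 bases before to 50 after the start were at hand for 9 of the 10 genes, in 12 windows, and *Hmox1* had none. Both strands were read. The core occurred in 1 of the 9 genes, or 1 of their 12 windows, and in 12.4% of all 32851 windows. The short form occurred in 3 of the 9 genes, or 5 of their 12 windows, and in 20.8% of all windows. *Gpx4* alone had 4 windows, which can share a site. All sites found in *Sod1*, *Gpx4* and *Prdx4* are printed with the motif in capitals, as read on the strand of the gene.
*Sod1* core, chr16:90220694-90220723, forward strand: gtgccaaggtggGCGTGGTCAgactcaggc
*Sod1* short form, chr16:90220514-90220542, forward strand: cgactcggccgaCGTCAcagttagaagac
*Gpx4* short form, chr10:80053521-80053549, forward strand: accaataagagaCGTCAgtgggcgtgccc
*Gpx4* short form, second site, chr10:80053963-80053991, forward strand: cccggcctggtgCGTCAcagtcggcggcg
*Prdx4* short form, chrX:155338540-155338568, reverse strand: tggctctcctttTGACGcaggcgcagaag
The *Sod1* motifs began 56 and 236 bases before the start, and that of *Prdx4* 96 bases before it. In *Gpx4* the first lay 32 or 126 bases before a start, depending on the start taken, and the second 36 bases before another. The sites in *Sod1* and *Gpx4* read on the opposite strand. These matches are letters in a window and no evidence of binding. *Nqo1* had no match to the core in this window, which says only that these letters are not in it.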

How the data were processed

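RNA was sequenced from 8 samples of mouse spermatocytes, 1 per group, and the authors deposited FPKM values per gene (made with Novomagic per the study's methods, which state DESeq2 as the test). The submitters' processing notes name CASAVA 1.4, Bowtie 0.12.2, mm8 and mm9, whereas 98.1% of the 54532 genes carry the coordinates of GENCODE M21 on GRCm38, which are printed here. The aligner behind the table and the scaling of its libraries are not given in the sources used here. FPKM times gene length gave whole reads for 100% of values within 0.01. Depth was 14340665 to 20379950 reads, and intervals cover counting error only, because reads copied by PCR and not marked by molecular identifiers are not separate molecules.

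Changes were differences of log2(FPKM + 1). Common effects and interactions were fitted with limma 3.58.1 (R 4.3.3, eBayes with trend) over 21175 genes that passed 1 FPKM in some library, blocked by pair, with Benjamini-Hochberg adjustment and a threshold of 0.05. The 4 pairs stand in for replicates, are not replicates of 1 condition and share libraries between the 3 comparisons, so p-values measure the spread between these pairs. On simulated data for the effect of genotype, 191, 197 and 200 of 200 genes changed by a log2 of 1, 2 and 3 were recovered among 20670, 20657 and 20718 genes, with 9, 13 and 7 false calls. Whether as large a share would be recovered in the real libraries was not tested. There *Mfn2* itself, with less RNA in MFN2 cKO in every pair, was not called for genotype. Shared sequence was counted in windows of 50 bases of GENCODE transcripts, and motifs in RefSeq promoter windows. Genes named are the 10 enzymes, *Mfn2*, in each list the most abundant gene and up to 4 that passed a test by smallest p, and the 2 most alike genes per enzyme. *Prm1* was chosen after its values were seen. The enzymes and lists were chosen with earlier results of these data known. The other settings tried were median-of-ratios scaling on top of the FPKM, a pseudocount of 0.1, all genes without the FPKM filter, eBayes without trend, no block, an additive model, protein-coding genes only, nothing added before the log2 ratio, and each pair left out.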

Additional observations from a re-analysis of the deposited data

Results flagged for a closer look

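For 4 enzymes an effect went one way in both pairs of one level of another factor and the opposite way in both pairs of the other level, in 6 of 60 differences looked at. The difference itself was tested in each case by the interaction term of limma, and none passed after Benjamini-Hochberg adjustment. *Gpx4* was lower in MFN2 cKO in both P pairs (-0.48 and -0.73) and higher in both L/Z pairs (0.14 and 0.51). The same values read by stage put P above L/Z in both MFN2 WT pairs (0.16 and 0.34) and below it in both MFN2 cKO pairs (-0.47 and -0.90). The difference of effects was -0.93 (SE 0.22, adjusted p = 0.979). *Prdx4* was lower in MFN2 cKO in both P pairs (-0.28 and -0.89) and higher in both L/Z pairs (0.05 and 0.80), with a difference of -1.01 (SE 0.37, adjusted p = 0.979). *Sod2* had the same signs (-0.04 and -0.39 in P, 0.50 and 0.24 in L/Z), with a difference of -0.59 (SE 0.29, adjusted p = 0.979). *Sod2* was also higher at PD 52 in both MFN2 WT pairs (0.28 and 0.03) and lower in both MFN2 cKO pairs (-0.07 and -0.23), with a difference of -0.30 (SE 0.35, adjusted p = 0.80). *Gpx1* was lower in P than in L/Z in both pairs at PD 24 (-0.69 and -0.94) and higher in both at PD 52 (1.25 and 0.06), with a difference of 1.47 (SE 0.46, adjusted p = 0.846). With 1 library per group, no outlying sample within a group could be looked for.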

How the results depend on the processing

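No paired analysis by replicate number was possible because each group holds 1 library. The pair of stage, genotype or age served as the block, and without the replicate block 3 genes were called for genotype, 1145 for stage and 1 for age, with 0 enzymes in each. No enzyme passed for genotype under any alternative (lowest adjusted p = 0.0907, for *Nqo1* among protein-coding genes). Of all genes, 7 were called for genotype with a pseudocount of 0.1, 0 without the FPKM filter, 18 without trend, 3 in the additive model, 71 among protein-coding genes and 0 to 0 with a pair left out. For stage, 0 enzymes passed without the FPKM filter (3010 genes), 2 with the further scaling and 2 among protein-coding genes. With a pair left out 0 to 2 passed, and 0 to 5000 genes were called. For age, 0 enzymes passed without the FPKM filter (791 genes), 4 among protein-coding genes, and 0 to 4 with a pair left out (0 to 3937 genes). Enzymes changed at least 2-fold, over the 4 pairs of each comparison, numbered 4, 5 and 7 (16 in all) for genotype, stage and age with a pseudocount of 1. They numbered 9 for genotype, 9 for stage and 11 for age (29 in all) with a pseudocount of 0.1, and 9, 10 and 12 (31 in all) with nothing added. The cause of these shifts was not tested, beyond fewer or more genes tested and fewer pairs. With 1 pair left out, 8 effects that did not pass took both signs. For genotype these were *Sod1* (-0.080 to 0.27), *Sod2* (-0.062 to 0.23), *Gpx4* (-0.36 to 0.055) and *Prdx4* (-0.37 to 0.19). For stage they were *Gpx1* (-0.53 to 0.21), *Gpx4* (-0.40 to 0.0088) and *Mfn2* (-0.22 to 0.057), and for age *Sod2* (-0.093 to 0.076). No effect that passed changed sign under any setting tried. Depth limits *Nqo1* (7 to 43 reads) most. With 1 library per group, differences between single cell preparations cannot be told apart from genotype, stage or age.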

Other observations

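Peroxisome and selenium genes were described by list as well. Of 15 peroxisome biogenesis genes, 0 were higher in MFN2 cKO in P at PD 52 (45.6% of all genes), with a median change of -0.25, and 12 were higher in L/Z at PD 24 (57% of all genes), with a median of 0.14. In the other pairs 6 of 15 were higher in P at PD 24 (37.9%) and 7 of 13 in L/Z at PD 52 (53%). None passed a common effect of genotype in limma (0 at an unadjusted p under 0.05). Between stages 5 of 15 were called, where 28.4% of all genes were. *Pex5* and *Pex2*, an import receptor and a ubiquitin ligase of peroxisomes, were higher in P by 0.72 (adjusted p = 0.0105) and 0.84 (adjusted p = 0.0133), with *Pex26* at 0.61, while *Pex3* was at -0.45 (adjusted p = 0.049), and between ages *Pex3* rose by 0.70 (adjusted p = 0.0251). Of 10 genes of selenoprotein synthesis 3 were called between stages, near the share of all genes, and *Secisbp2l*, *Scly* and *Sepsecs* were higher in P (0.64, 0.62 and 0.46) and *Secisbp2l* fell by 0.72 with age.

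The most abundant genes of some lists were as follows. *Fth1*, the heavy chain of ferritin and an NRF2 target, was at 175 FPKM in L/Z MFN2 WT and 354 in L/Z MFN2 cKO at PD 24. At the later age L/Z MFN2 WT held the least of all libraries, and L/Z MFN2 cKO held 165. The P values ran from 177 (MFN2 cKO, PD 52) to 240 (MFN2 WT, PD 52). *Gstm5* was at 485 to 1091 FPKM, above *Gpx4* in every library. *Selenow*, another selenoprotein, was at 125 to 317 and highest in P MFN2 WT PD 52. *Ccs*, the copper chaperone of SOD1, was at 33.5 to 49.9, in the range of *Sod1* itself.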
